A study of Mus musculus with 4 samples.

Results

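The genes described here encode granins and other proteins of dense core vesicles: Chga, Chgb, Scg2, Scg3, Scg5, Vgf, Ptprn, Ptprn2, Pcsk1 and Cpe. They were chosen by gene symbol, as 10 of the 24341 genes in the deposited table, and all 10 had a row. The choice was made with earlier values of the same ACSS2i and DMSO libraries known, so the difference between the groups in these genes is given as a description, with no test. The study compared cultures of the mouse line CAD (Cath.-a-differentiated), which is of catecholaminergic neuronal origin. One group received ACSS2i, an ACSS2 inhibitor with thiophene rings and a methoxyethyl urea on a quinoxaline core, at 20 µM for 24 h, and the other received its solvent DMSO for 24 h. Both groups were kept in serum-free medium for 5 days, the condition in which this line takes on a neuron-like form, and each group had 2 polyadenylated RNA libraries. All cells came from 1 cell line, and since the labels name no separate cultures behind the replicates, p-values cover only the variation from library to library, which may be technical.

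Dense core vesicles store peptides and amines and release them when the cell is stimulated. Granins are acidic proteins that aggregate with calcium in the late Golgi, help to form the vesicle core and are themselves cut into peptides. Prohormones packed with them are cleaved by convertases such as that encoded by Pcsk1, and the exposed basic residues are removed by carboxypeptidase E, encoded by Cpe. ACSS2 makes acetyl-CoA from acetate, and the comparison asks how expression differs when the enzyme is inhibited in neuron-like cells.

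Values were taken as FPKM, fragment counts divided by transcript length and by library size, a scale on which genes can be compared with each other. The header gives no unit, and any further scaling between the libraries is not stated. The nominal depth read from the low values was 7900000 and 10000000 reads in the ACSS2i libraries and 11700000 and 3410000 reads in the DMSO libraries, so DMSO replicate 2 was the shallowest. Summed over all genes, FPKM came to 558458 and 675716 in the ACSS2i libraries, against 590549 and 590108 in the DMSO libraries. Markers of neuronal identity were present, with Prph (peripherin) at 625 and 884 FPKM in ACSS2i and 669 and 482 FPKM in DMSO, while Th, tyrosine hydroxylase, was at 4.09 and 2.92 FPKM in ACSS2i and 3.53 and 3.16 FPKM in DMSO. Dbh, dopamine beta-hydroxylase, was below 1 FPKM in all 4 libraries. Of the 6 fibroblast and the 6 immune markers 0 reached a mean of 1 FPKM. Acss2 itself was at 12.8 and 26.6 FPKM in ACSS2i and 11.7 and 10.0 FPKM in DMSO. Proliferation markers moved with the groups: the 8 on the list summed to 69.0 and 144.7 FPKM in ACSS2i and to 5.56 and 12.9 FPKM in DMSO. Their part in the values given here was not tested. In bulk RNA, fewer cells with a transcript and less of it per cell cannot be told apart.

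The 10 genes together made up 0.987% and 0.556% of the summed FPKM in the ACSS2i libraries, against 1.44% and 2.17% in the DMSO libraries. Chgb, which encodes chromogranin B, supplied most of this, at 80.8% and 66.8% of the sum over the 10 genes in ACSS2i and 79.9% and 78.0% in DMSO. Without Chgb the share was 0.189% and 0.185% in ACSS2i and 0.290% and 0.477% in DMSO. The share was lower in both ACSS2i libraries than in both DMSO libraries with and without Chgb.

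**Figure D1:**
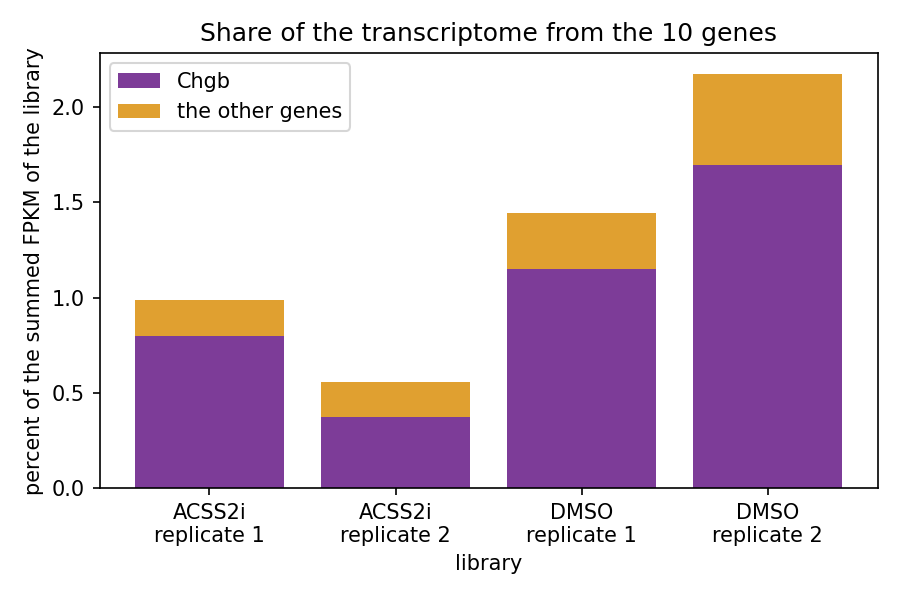
Percent of the summed FPKM of each library that came from Chgb and from the other 9 genes, 1 stacked bar per library. The ACSS2i bars reach 0.987% and 0.556%, below the DMSO bars at 1.44% and 2.17%.

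Among the granins, Chgb had 4453 and 2509 FPKM in ACSS2i, against 6801 and 10010 FPKM in DMSO. By level it ranked 9 and 39 among all genes in the ACSS2i libraries and 4 and 3 in the DMSO libraries. The groups did not overlap, and the mean ratio was 0.414, with a log2 fold change of -1.30 ± 0.47 (SE, limma). The gene lies on chromosome 2, 132781278 to 132795079, plus strand (mm10).

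Scg2 encodes secretogranin II, the precursor of secretoneurin, and lies on chromosome 1, 79434669 to 79440120, minus strand. It had 349 and 328 FPKM in ACSS2i, against 576 and 1185 FPKM in DMSO. Both ACSS2i libraries were below both DMSO libraries and lay within 1.06-fold of each other, while the DMSO libraries differed by 2.06-fold. The log2 fold change was -1.28 ± 0.41 (SE), and -0.76 without DMSO replicate 2.

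Chga, which encodes chromogranin A, did not show the same separation. It had 78.1 and 228 FPKM in ACSS2i, against 192 and 208 FPKM in DMSO. ACSS2i replicate 1 was the lowest of the 4 libraries and ACSS2i replicate 2 the highest, a 2.92-fold gap inside the treated group. The log2 fold change of -0.58 ± 0.51 (SE) became 0.19 without ACSS2i replicate 1.

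Scg3 encodes secretogranin III, which binds chromogranin A and cholesterol-rich membrane. It had 165 and 228 FPKM in ACSS2i, against 183 and 241 FPKM in DMSO, so the groups overlapped. Its log2 fold change was -0.12 ± 0.30 (SE), and 0.11 without ACSS2i replicate 1 and 0.083 without DMSO replicate 2. Scg5 encodes 7B2, the chaperone of the convertase PC2. It had 85.2 and 154.7 FPKM in ACSS2i, against 136 and 117 FPKM in DMSO, with ACSS2i libraries on either side of the DMSO libraries. Its log2 fold change was -0.13 ± 0.35 (SE), and 0.30 without ACSS2i replicate 1.

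**Figure D2:**
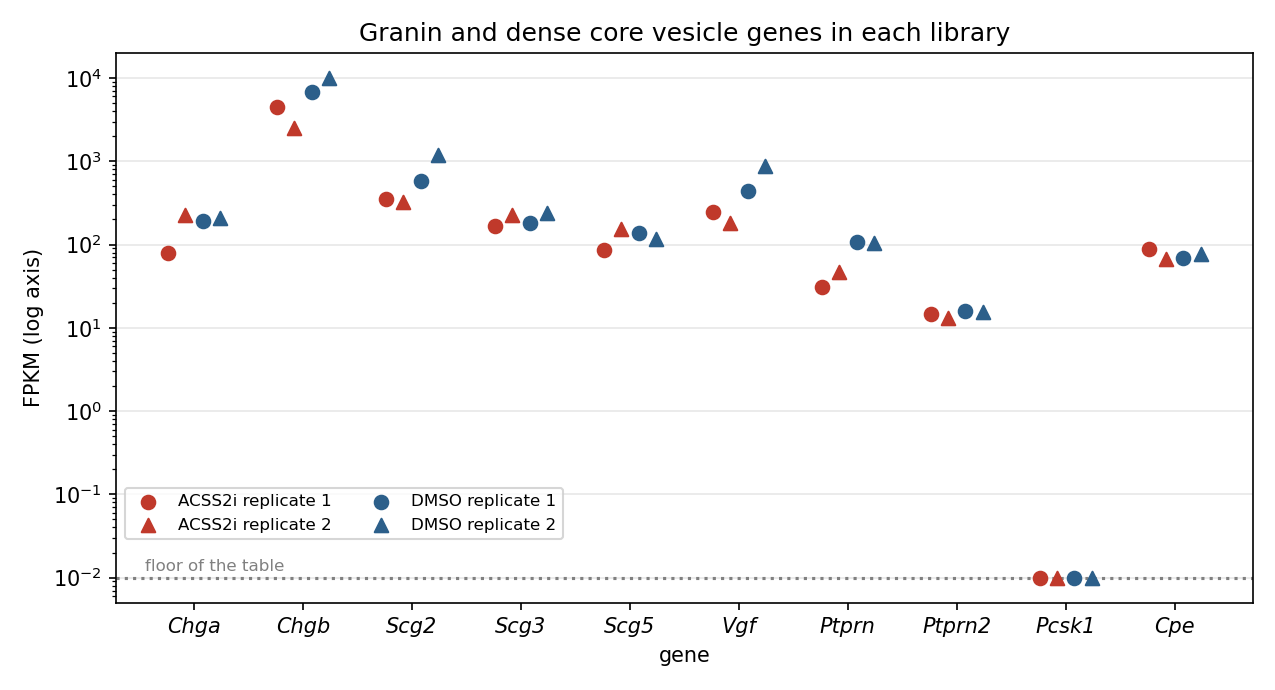
FPKM on a log axis for the 10 genes, with 1 point per library, ACSS2i in red and DMSO in blue, circles for replicate 1 and triangles for replicate 2. Chgb lies between 2509 and 10010 FPKM, and Pcsk1 sits at the floor of 0.01 FPKM in all 4 libraries.

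Promoter sequences of the granin genes are shown because cyclic AMP response elements are known to drive several of them. RefSeq windows (GRCm38.p6, the build of mm10) of 250 bases before to 50 bases after the transcription start were found for 8 of the 10 genes, 9 windows in all, with 2 for Ptprn. Vgf and Cpe had no window and were not searched. The full element, TGACGTCA, reads the same on both strands. It stood in the windows of 3 genes, Scg2, Chgb and Pcsk1, and in 1.79% of all 32851 promoter windows. The shorter TGACG, searched on both strands and contained in the full element, stood in 7 of the 9 windows, 1 each of Chga, Chgb, Scg2, Scg3, Scg5, Ptprn and Pcsk1, and in 20.8% of all windows. The full element began 68 bases before the start of Scg2, 72 before that of Chgb and 78 before that of Pcsk1. In the chosen windows below it is in capitals, and each is written 5′ to 3′ on the strand of the gene: Scg2 at chr1:79439977-79440276 (minus strand), Chgb at chr2:132781392-132781691 (plus strand) and Pcsk1 at chr13:75089607-75089906 (plus strand).
Scg2: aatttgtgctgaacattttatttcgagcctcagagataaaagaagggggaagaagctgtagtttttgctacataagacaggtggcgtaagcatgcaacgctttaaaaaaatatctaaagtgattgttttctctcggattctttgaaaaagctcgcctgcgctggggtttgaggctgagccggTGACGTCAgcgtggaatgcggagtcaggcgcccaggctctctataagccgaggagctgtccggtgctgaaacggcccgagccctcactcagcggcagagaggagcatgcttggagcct
Chgb: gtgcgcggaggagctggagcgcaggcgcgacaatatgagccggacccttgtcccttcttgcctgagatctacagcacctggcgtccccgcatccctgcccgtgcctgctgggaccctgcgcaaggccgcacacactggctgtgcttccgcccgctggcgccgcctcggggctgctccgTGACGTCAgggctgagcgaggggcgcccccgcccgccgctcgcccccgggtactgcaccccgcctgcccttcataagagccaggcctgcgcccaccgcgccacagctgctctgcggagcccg
Pcsk1: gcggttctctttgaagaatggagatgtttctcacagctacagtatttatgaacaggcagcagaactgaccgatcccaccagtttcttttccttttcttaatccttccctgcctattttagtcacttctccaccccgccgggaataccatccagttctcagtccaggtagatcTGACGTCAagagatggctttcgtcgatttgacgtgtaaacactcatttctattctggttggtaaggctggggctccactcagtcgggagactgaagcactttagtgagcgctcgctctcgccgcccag
Chgb and Scg2 did not overlap between the groups and were lower in ACSS2i, and Pcsk1, with the same letters at a similar distance, was at the floor in every library. Chga, Scg3 and Scg5, with TGACG alone, overlapped between the groups, and Ptprn, also with TGACG alone, did not. Ptprn2, whose window held neither, did not overlap either and was lower in ACSS2i. Over all tested genes, 18.3% had both ACSS2i libraries below both DMSO libraries. A link between these letters and the values was not tested. A match of letters is a description and does not show that a factor was bound.

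**Figure D3:**
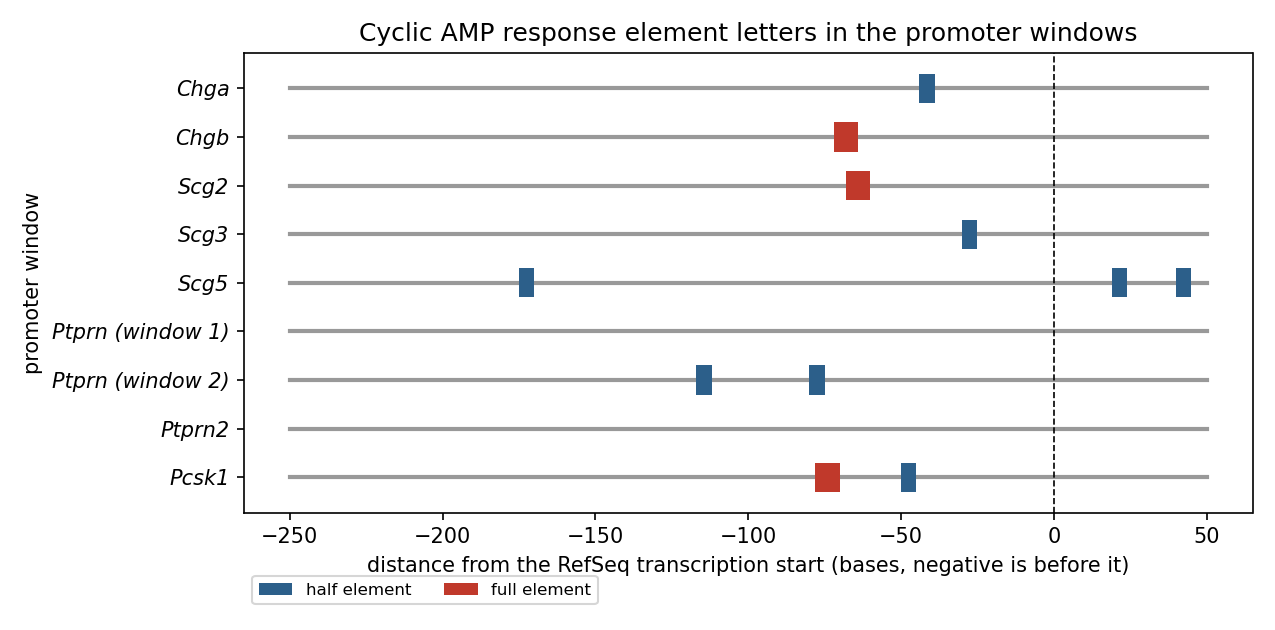
Position of TGACGTCA (red) and of TGACG outside it (blue) in the 9 promoter windows, with distance from the RefSeq transcription start in bases. The red marks of Scg2, Chgb and Pcsk1 begin 68, 72 and 78 bases before the start.

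Vgf encodes a secreted neuronal protein that is stored with the granins and cut into peptides, and it lies on chromosome 5, 137026392 to 137033351, plus strand. It had 245 and 183 FPKM in ACSS2i, against 436 and 867 FPKM in DMSO. Both ACSS2i libraries were below both DMSO libraries, with a mean ratio of 0.329, the lowest of the 9 genes above the floor. The DMSO libraries differed from each other by 1.99-fold and the ACSS2i libraries by 1.34-fold. The log2 fold change was -1.53 ± 0.40 (SE), -1.04 without DMSO replicate 2 and -2.03 without DMSO replicate 1.

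Ptprn and Ptprn2 encode IA-2 and phogrin, related transmembrane proteins of the vesicle membrane with phosphatase-like domains. Ptprn, on chromosome 1, 75247027 to 75264502, minus strand, had 30.6 and 46.9 FPKM in ACSS2i, against 106 and 104 FPKM in DMSO. The DMSO libraries lay within 1.02-fold of each other and the groups did not overlap. Its mean was 38.7 ± 11.5 FPKM in ACSS2i and 105.4 ± 1.48 FPKM in DMSO (SD, n = 2 each), and the log2 fold change was -1.45 ± 0.28 (SE). Leaving out 1 library at a time gave -1.75 to -1.15. Ptprn2 had 14.6 and 13.1 FPKM in ACSS2i, against 16.1 and 15.4 FPKM in DMSO. The ACSS2i values of Ptprn2 were again the lower, by a mean ratio of 0.880, with a log2 fold change of -0.17 ± 0.22 (SE). When all libraries were scaled to the same sum of FPKM, the Ptprn2 groups overlapped. The difference between the changes of Ptprn and Ptprn2 was not tested.

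Of the processing enzymes in the set, Cpe had 89.0 and 66.6 FPKM in ACSS2i, against 68.8 and 77.7 FPKM in DMSO, with the DMSO values inside the range of the ACSS2i values. Its log2 fold change was 0.074 ± 0.26 (SE), and it was negative without ACSS2i replicate 1 (-0.13) or DMSO replicate 1 (-0.013). Pcsk1, which encodes the convertase PC1/3, was listed at the floor of 0.01 FPKM in all 4 libraries. A count of 0 reads allows up to 3 reads, worth a nominal 0.0753 and 0.0595 FPKM in ACSS2i and 0.0509 and 0.175 FPKM in DMSO, counting error only. Pcsk2, which encodes the other main convertase of these vesicles, was at 0.388 and 0.143 FPKM in ACSS2i and 0.192 and 0.360 FPKM in DMSO.

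In order of mean level in ACSS2i the genes ran Chgb, Scg2, Vgf, Scg3, Chga, Scg5, Cpe, Ptprn, Ptprn2 and Pcsk1. In DMSO they ran Chgb, Scg2, Vgf, Scg3, Chga, Scg5, Ptprn, Cpe, Ptprn2 and Pcsk1. Ptprn thus stood below Cpe in both ACSS2i libraries and above it in both DMSO libraries. Neighbours that overlapped were Vgf with Scg3, Scg3 with Chga, Chga with Scg5 and Scg5 with Cpe in ACSS2i, and Scg2 with Vgf and Scg3 with Chga in DMSO.

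**Figure D4:**
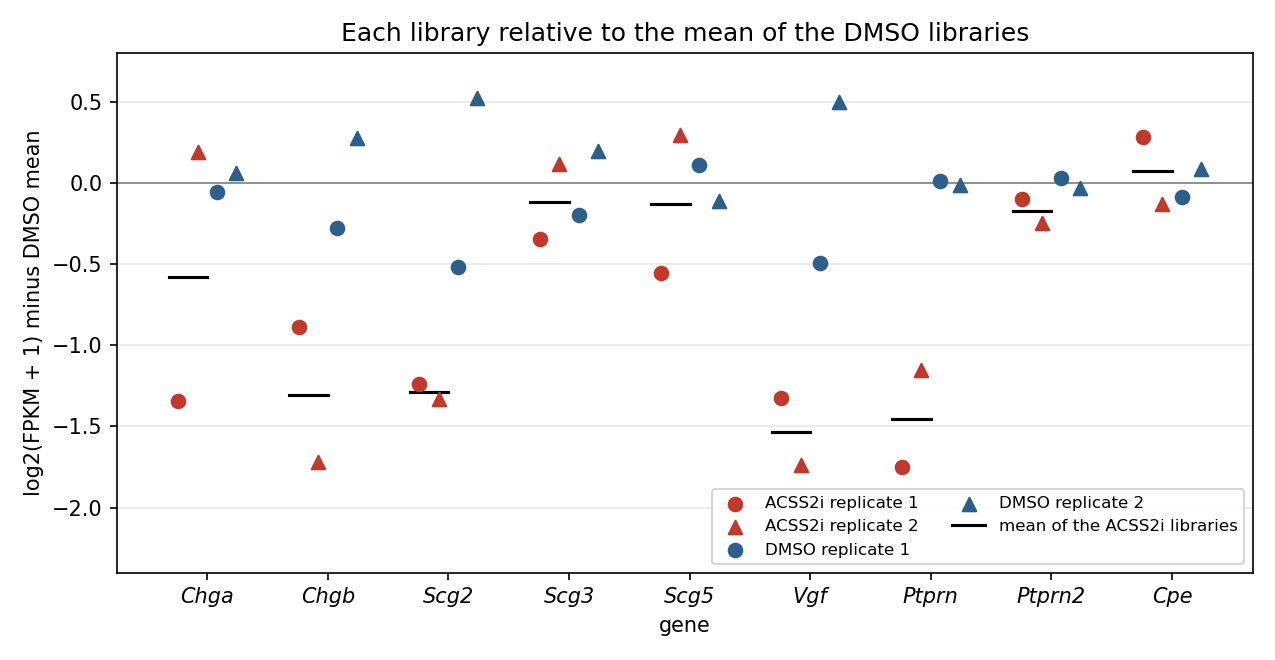
The log2(FPKM + 1) value of each library minus the mean of the DMSO libraries for the 9 genes above the floor, with symbols as in the plot of levels and a black line at the ACSS2i mean. Chgb, Scg2, Vgf and Ptprn lie between -0.89 and -1.75 in the ACSS2i libraries, while the ACSS2i libraries of Chga, Scg3, Scg5 and Cpe lie on either side of the DMSO mean.

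Of the 10 genes, 9 averaged 1 FPKM or more and entered the comparison across all genes. At an adjusted p under 0.05 (limma, Benjamini-Hochberg over 11486 genes) 0 of the 9 were called, where 0.0174% of all tested genes were called higher and 0.00871% lower. At an unadjusted p under 0.05, 4 were lower (Chgb, Scg2, Vgf and Ptprn) and 0 higher, where 3.67% of all tested genes were lower and 3.29% higher. Without DMSO replicate 2 the log2 fold changes of these 4 were -1.02 (Chgb), -0.76 (Scg2), -1.04 (Vgf) and -1.47 (Ptprn). Both ACSS2i libraries were below both DMSO libraries in 5 genes (Chgb, Scg2, Vgf, Ptprn and Ptprn2), against 18.3% of all tested genes, and above in 0, against 19.0%. The other 4 overlapped. The median log2 fold change of the 9 was -0.58, against 0.020 over all tested genes, and 8 of the 9 were negative, against 47.8%. The median rested on the treated libraries unequally: it was -0.25 without ACSS2i replicate 1 and -0.89 without ACSS2i replicate 2. Because the genes were chosen with these values known, nothing is read from these counts.

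ACSS2i replicate 1 was below both DMSO libraries in 8 of the 9 genes, all but Cpe. ACSS2i replicate 2 was below both in 6, namely Chgb, Scg2, Vgf, Ptprn, Ptprn2 and Cpe. The matching shares of all tested genes were not computed, and nothing is read from these counts. Slc18a2, the vesicular monoamine transporter that loads amines into these vesicles, was also lower in ACSS2i replicate 1 than in ACSS2i replicate 2, at 21.6 and 108.7 FPKM in ACSS2i and 70.2 and 62.3 FPKM in DMSO. Cd63, also of the vesicle membrane, went the other way, at 242 and 104.5 FPKM in ACSS2i and 217 and 192 FPKM in DMSO. The 10 tested genes of the neuronal identity list differed from the DMSO mean by a median log2 of -0.39 (ACSS2i replicate 1) and 0.27 (ACSS2i replicate 2). Among them Gap43 was at 210 and 436 FPKM, Snap25 at 77.9 and 149.5 FPKM and Tubb3 at 121 and 323 FPKM in the ACSS2i libraries, against 421 and 367, 138 and 152, and 99.0 and 134 FPKM in the DMSO libraries. Th alone went the other way, at 4.09 and 2.92 FPKM in ACSS2i. L1cam was level within ACSS2i, at 43.7 and 44.4 FPKM, against 67.7 and 71.8 FPKM in DMSO. The part of the difference between the ACSS2i libraries in the values of Chga, Scg3 and Scg5 was not tested.

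Other genes were read from 7 further lists. They covered the regulated secretory pathway, transcription factors and, for comparison, small synaptic vesicles and ER to Golgi transport. Of the tested genes on these lists 0 were called by limma after adjustment over all genes. At an unadjusted p under 0.05, 1 of the 73 was higher (Ica1; 1.37%, against 3.29% of all tested genes) and 3 were lower (Egr1, Vamp1 and Scamp5; 4.11%, against 3.67%), shares near those of all tested genes. Egr1 came from the transcription factor list, and Vamp1 and Scamp5 were 2 of the 9 tested small synaptic vesicle genes. Of the 9 other processing genes 6 were tested, with a median log2 fold change of -0.34. All 6 were negative, against 47.8% of all tested genes. Both ACSS2i libraries were below both DMSO libraries in 3 of them, against 18.3% of all tested genes, and the rest overlapped. Pcsk1n encodes proSAAS, an inhibitor of PC1/3, and had 23.2 and 16.4 FPKM in ACSS2i, against 26.1 and 24.8 FPKM in DMSO. The groups did not overlap for Pcsk1n (log2 fold change -0.37 ± 0.26, SE; adjusted p = 0.816, limma). Pam, the enzyme that amidates peptides, had 13.8 and 9.73 FPKM in ACSS2i and 13.3 and 15.9 FPKM in DMSO and overlapped. Cpd (carboxypeptidase D) and Pcsk7 had log2 fold changes of -0.38 and -0.31.

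The genes of vesicle assembly and exocytosis were mixed. Of 31 on the list 22 were tested, with 12 negative and 10 positive and a median of -0.012 (0.17 without ACSS2i replicate 1). Ica1 encodes ICA69, a protein with a membrane-binding BAR domain that takes part in forming dense core vesicles. It had 75.6 and 82.7 FPKM in ACSS2i, against 44.6 and 49.6 FPKM in DMSO (log2 fold change 0.74 ± 0.23, SE; adjusted p = 0.606, limma). The synaptotagmin Syt4, found on dense core vesicles, had 77.4 and 43.7 FPKM in ACSS2i, against 107 and 89.9 FPKM in DMSO. Syt7, a calcium sensor of exocytosis, had 16.2 and 10.6 FPKM in ACSS2i, against 20.3 and 20.3 FPKM in DMSO. Neither synaptotagmin overlapped between groups, with log2 fold changes of -0.74 and -0.59 (adjusted p = 0.751 and 0.758, limma). Vps52, a subunit of the GARP and EARP tethering complexes, had a log2 fold change of 0.37. Cadps, the priming factor CAPS, was at 0.045 and 0.070 FPKM in ACSS2i, against 0.030 FPKM and the floor in DMSO.

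Of the 8 vesicle membrane and amine genes 5 were tested, with 4 negative and a median of -0.35 (-0.094 without ACSS2i replicate 1). Sv2a had 6.14 and 7.10 FPKM in ACSS2i, against 9.08 and 11.7 FPKM in DMSO. Its groups did not overlap (log2 fold change -0.57 ± 0.25, SE; adjusted p = 0.737, limma). The tetraspanin Cd63 and the cytochrome Cyb561 overlapped, with log2 fold changes of -0.35 and -0.15.

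Few neuropeptide precursors were expressed, and 5 of 31 were tested, with a median log2 fold change of 0.24 (-0.013 without DMSO replicate 1). Npy had 52.1 and 52.0 FPKM in ACSS2i, against 23.5 and 55.5 FPKM in DMSO. Cartpt had 16.5 and 12.6 FPKM in ACSS2i, against 13.5 and 10.6 FPKM in DMSO. Both precursors overlapped between groups, and Adm, the adrenomedullin precursor, did too, at 2.00 and 7.09 FPKM in ACSS2i and 1.35 and 2.08 FPKM in DMSO. Nucb2, the nesfatin precursor, was lower in both ACSS2i libraries, at 31.7 and 31.3 FPKM in ACSS2i and 37.8 and 37.2 FPKM in DMSO (log2 fold change -0.24 ± 0.22, SE; adjusted p = 0.854, limma).

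The transcription factors known to act on granule genes had 9 of 11 tested and a median log2 fold change of -0.31, with 7 negative. Both ACSS2i libraries were below both DMSO libraries in 5 of the 9, against 18.3% of all tested genes. They were above in 1, against 19.0%. Rest, a repressor of neuronal and granin genes outside neurons, had 3.39 and 2.12 FPKM in ACSS2i, against 2.46 and 1.47 FPKM in DMSO, and overlapped. Insm1, a zinc finger factor of neuroendocrine cells, also overlapped, at 15.0 and 21.5 FPKM in ACSS2i and 15.4 and 25.3 FPKM in DMSO. Creb1, the factor that binds cyclic AMP response elements, had 11.0 and 10.5 FPKM in ACSS2i, against 14.0 and 14.3 FPKM in DMSO (log2 fold change -0.37 ± 0.22, SE; adjusted p = 0.804, limma). The related Atf1 and the zinc finger factor Myt1 had log2 fold changes of -0.32 and -0.31. Egr1, an immediate early factor, had 5.57 and 20.9 FPKM in ACSS2i, against 27.2 and 54.0 FPKM in DMSO (log2 fold change -1.71 ± 0.61, SE; adjusted p = 0.657, limma).

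For comparison, the small synaptic vesicle list had 9 of 12 tested and a median of -0.32, with 6 negative, and general ER to Golgi transport had 17 of 17 tested and a median of 0.14 (0.0081 without ACSS2i replicate 1), with 12 positive. Vamp1, a fusion protein of synaptic vesicles, had 3.85 and 3.65 FPKM in ACSS2i, against 9.00 and 16.6 FPKM in DMSO (log2 fold change -1.48 ± 0.33, SE; adjusted p = 0.472, limma). Scamp5, Syp (synaptophysin) and Syt1 (synaptotagmin 1) had log2 fold changes of -0.61, -0.41 and -0.40. In the transport list the coat subunits Copa and Copg1 had 0.44 and 0.36, and the Golgi proteins Golgb1 and Tgoln1 had -0.32 and -0.45. Both ACSS2i libraries were below both DMSO libraries in 6 of the 9 small synaptic vesicle genes and above in 0. Of the 17 transport genes 1 was below and 5 were above. Over all tested genes the shares were 18.3% below and 19.0% above. The lists were chosen with earlier results known, so nothing is read from these counts. Differences between the lists were not tested.

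**Figure D5:**
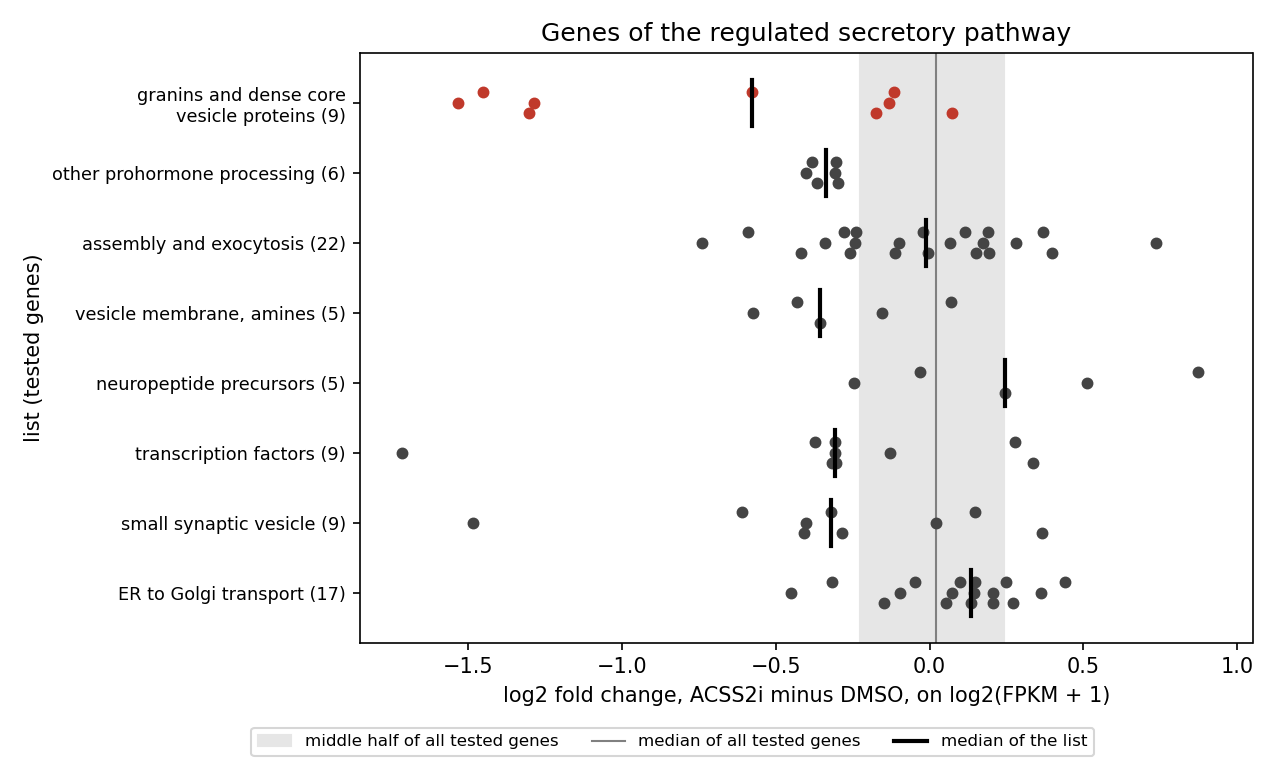
Log2 fold change (ACSS2i minus DMSO, on log2(FPKM + 1)) of each tested gene in the granin set and 7 further lists, 1 point per gene, with a black bar at each list's median. The gray band is the interquartile range of all 11486 tested genes, and 4 granin set genes lie between -1.53 and -1.28, to the left of it.

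The genes closest to the median pattern of the 9 genes were sought among the 1714 other genes that averaged 50 FPKM or more. Likeness was the root mean square distance, over the 4 libraries, between a gene's log2(FPKM + 1) deviations from its own mean and the median deviations of the 9 genes. The nearest were App (distance 0.065), Itgb1 (0.072), Prrc2c (0.078), Rbms1 (0.084) and H13 (0.090), and 10 genes lay within 0.1. App, the amyloid precursor protein gene, had 144 and 166 FPKM in ACSS2i, against 233 and 253 FPKM in DMSO. The median is a composite of genes that differed from each other, and the distances of the 9 genes themselves from it were not computed. A small distance therefore does not mean that a gene followed any single granin gene. With 4 libraries this likeness is a description only.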

How the data were processed

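The 2 ACSS2i and 2 DMSO RNA-seq libraries were made from polyadenylated RNA with the ScriptSeq v2 kit, per the labels' protocols. Tools listed in the submitters' processing notes were Cuffdiff, Cufflinks 2.2.1, STAR 2.3.0 and bcl2fastq 02.14.01.07, with mm10 as the build. The annotation, the scaling between libraries and the adjustment named in the table's title are not given in the sources used here. Deposited values, 1 per gene and library, were taken as FPKM computed by the authors, since the notes name Cufflinks and the header gives no unit. The lowest deposited value was 0.01 FPKM. Of 24341 genes, 1 with a failed value was left out.

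The 11486 genes averaging 1 FPKM or more were tested on log2(FPKM + 1) with limma 3.58.1 (R 4.3.3; mean-variance trend, two-sided, Benjamini-Hochberg, threshold 0.05), a scale that understates the change of low genes. Moderated SE are given. An exact permutation test cannot reach the threshold with 2 libraries per group. The script was tested on simulated data. Relative depth was the most common ratio of low values between libraries, and nominal reads used GENCODE M21 lengths of single-transcript genes. Gene coordinates are from GENCODE M21 and promoters from RefSeq.

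The members and the lists were chosen with earlier results of these data known. Named were the 10 genes, up to 4 genes of each list with the smallest unadjusted p, Pcsk2, Pcsk1n, Pam, Cadps, Rest, Insm1, Acss2 and the 5 nearest in pattern. Marker genes, Slc18a2 beside Chga and the genes past an unadjusted p of 0.05 were named from their values or as checks. The alternatives were other pseudocounts, filters and scalings, a replicate block, and leaving out each library. The glial marker list is not reported here.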

Additional observations from a re-analysis of the deposited data

How the results depend on the processing

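There were 12 alternatives. Under those that kept all 4 libraries, limma called 0 of the 9 granin and dense core vesicle genes and 0 genes of the 7 further lists. Chgb, Scg2, Vgf and Ptprn had both ACSS2i libraries below both DMSO libraries under the equal sums, quantile and median-of-ratios scalings. The median-of-ratios factors were 0.996 to 1.008, and the FPKM sums 558458 to 675716. Shifts of that size are smaller than the gaps in these genes (the narrowest in Chgb, 4453 against 6801 FPKM). Equal sums and median-of-ratios therefore could not change the order, and nothing is read from it. The number of genes called among all tested was 3, and it was 6 with a pseudocount of 0.1, 0 with a pseudocount of 5 (795 at an unadjusted p under 0.05), 0 without a filter (1342 at an unadjusted p under 0.05), 5 with equal sums and 13 to 26 when 1 library was left out. With the replicate number as a block it was 8, with a median of -0.58 for the 9 genes and 0 of them called. The labels do not say whether same-numbered libraries were handled as pairs. Their deviations correlated at -0.017 across 11486 genes, so no gene-by-gene pattern shared by same-numbered libraries was seen. A shift equal in all genes would not show in this correlation. With 2 libraries per group the correlation cannot settle whether the libraries were paired. The count of the 9 genes with both ACSS2i libraries lower was 5, against 18.3% of all tested genes. It was 4 with equal sums and 6 with quantile normalization (Chga joined), and the shares of all tested genes under these scalings were not computed. The count with both higher was 0, against 19.0% of all tested genes, and stayed 0 with these scalings. Groups separate more readily when 1 library is left out, so counts from those fits are not given. The median of the 9 genes ran from -0.89 to -0.25. The signs of Chga, Scg3, Scg5 and Cpe depended on which library was left out, and the cause was not tested. Without an expression filter 1 of the 9 was lower at an unadjusted p under 0.05 (limma), against 4 with the filter. Of all genes, 1342 of 24340 were under that p in either direction without the filter, against 799 of 11486 with it.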

Other observations

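The DMSO libraries differed from each other most in Scg2, Vgf and Chgb, which with Ptprn had the lowest ratios of the ACSS2i to the DMSO mean. DMSO replicate 2 exceeded DMSO replicate 1 by 2.06-fold in Scg2, 1.99-fold in Vgf and 1.47-fold in Chgb, and by at most 1.32-fold, in either direction, in the other 6 genes above the floor. Gaps of like size were not particular to these genes. Egr1, at 27.2 FPKM in DMSO replicate 1 and 54.0 FPKM in DMSO replicate 2, had one. So did Npy (23.5 and 55.5 FPKM) and Vamp1 (9.00 and 16.6 FPKM), while Cyb561 had one in the other direction (15.2 and 8.28 FPKM). In the ACSS2i group the widest gaps were in Chga (2.92-fold), Scg5 (1.82-fold) and Chgb (1.77-fold). Chga and Scg5 were lower in ACSS2i replicate 1, and Chgb was lower in ACSS2i replicate 2.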
